A study of Mus musculus with 15 samples.

Results

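The 10 genes described here make the enzymes that synthesise 4 kinds of neurotransmitter and the transporters that load them into synaptic vesicles. They were taken by symbol as sets for glutamate (Slc17a7, Slc17a6 and Slc17a8), GABA (Gad1, Gad2 and Slc32a1), acetylcholine (Chat and Slc18a3) and monoamines (Th and Slc18a2), out of 43432 gene IDs in the deposited table. All 10 were found, and 6 of them passed the filter on low counts. Slc17a6, Chat, Slc18a3 and Th passed only through their reads at day 13, so for these genes having passed and being higher at day 13 are not independent. Slc17a7 passed only through factor libraries, so the same holds for its rises against control. Slc17a8, Gad1, Gad2 and Slc32a1 did not pass and are given as reads per library.

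PolyA RNA was sequenced from mouse embryonic fibroblasts (MEFs), connective tissue cells grown in DMEM with serum. Cells received a lentivirus for Ngn1 or Ngn3, the basic helix-loop-helix factors whose genes are Neurog1 and Neurog3, and doxycycline on day 0 switched the factor on. From day 2 they were kept in a neuronal medium of DMEM/F12, GlutaMAX, N2 and B27. The 5 groups of 3 libraries, with replicates lettered a to c, were control MEFs, Ngn1 at day 1, Ngn3 at day 1, Ngn1 at day 13 and Ngn3 at day 13. The labels of the controls say nothing of virus, doxycycline, medium or days in culture. Against control at day 1, the factor thus cannot be told apart from the virus, doxycycline and the time in culture. At day 13 it cannot be told apart from these or from the medium. No label ties the libraries of 1 group to different cultures, so p-values measure the spread between these libraries, which may be technical.

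A neuron usually fills its vesicles with a transmitter through a matching vesicular transporter, driven by the pumping of protons into the vesicle. Glutamate is present in all cells, so a vesicular glutamate transporter is the usual mark of a glutamatergic neuron, whereas GABA, acetylcholine and catecholamines also need a synthesising enzyme. The vesicular monoamine transporter and tyrosine hydroxylase serve dopamine and noradrenaline neurons, and choline acetyltransferase with the vesicular acetylcholine transporter serves motor and other cholinergic neurons.

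Totals ran from 14869015 to 17859844 counts per library. Neurog1 reads numbered 31250, 65277 and 16252 (replicates a, b and c) in Ngn1 at day 1 and 22766, 61015 and 80443 at day 13, against 0 in every control library. Neurog3 reads numbered 20393, 52069 and 20429 in Ngn3 at day 1 and 22349, 98008 and 90297 at day 13, against 0, 1 and 0 in control, and viral and endogenous reads were not separated. The 9 fibroblast markers were detected in all groups, with a summed level of 8916 to 12021 CPM (reads scaled to library depth) in control. At day 13 they summed to 10493 to 36565 CPM in Ngn1 and 10842 to 36410 CPM in Ngn3. Single markers moved both ways against control at day 13, by the test described below. With Ngn1 3 rose and 3 fell, and with Ngn3 4 rose and 3 fell, where 32.6% and 31.2% of all genes rose and 26.8% and 26.4% fell. The 8 pan-neuronal markers summed to 77.8 to 97.3 CPM in control, to 610 to 1390 CPM in Ngn1 at day 13 and to 617 to 833 CPM in Ngn3 at day 13. Fewer neuronal cells and less RNA per cell cannot be told apart in such bulk libraries.

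A gene was called when edgeR's quasi-likelihood test gave a p under 0.05 after Benjamini-Hochberg adjustment across 16872 genes. Of the 10 genes, 1 rose with Ngn1 at day 1 and 1 with Ngn3 at day 1, where 6.78% and 7.19% of all genes tested rose and 5.42% and 5.59% fell (12.2% and 12.8% were called in either direction). At day 13 the same 6 genes rose against control with each factor, where 32.6% of all genes rose with Ngn1 and 31.2% with Ngn3, and 26.8% and 26.4% fell (59.4% and 57.6% called in either direction). From day 1 to day 13, 6 rose with Ngn1 and 5 with Ngn3, where 30.6% and 29% of all genes rose and 27.3% and 26.8% fell (57.9% and 55.8% called). Comparisons with control share the 3 control libraries, and those from day 1 to day 13 share libraries with them, so their counts are not independent of each other.

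**Figure D1:**
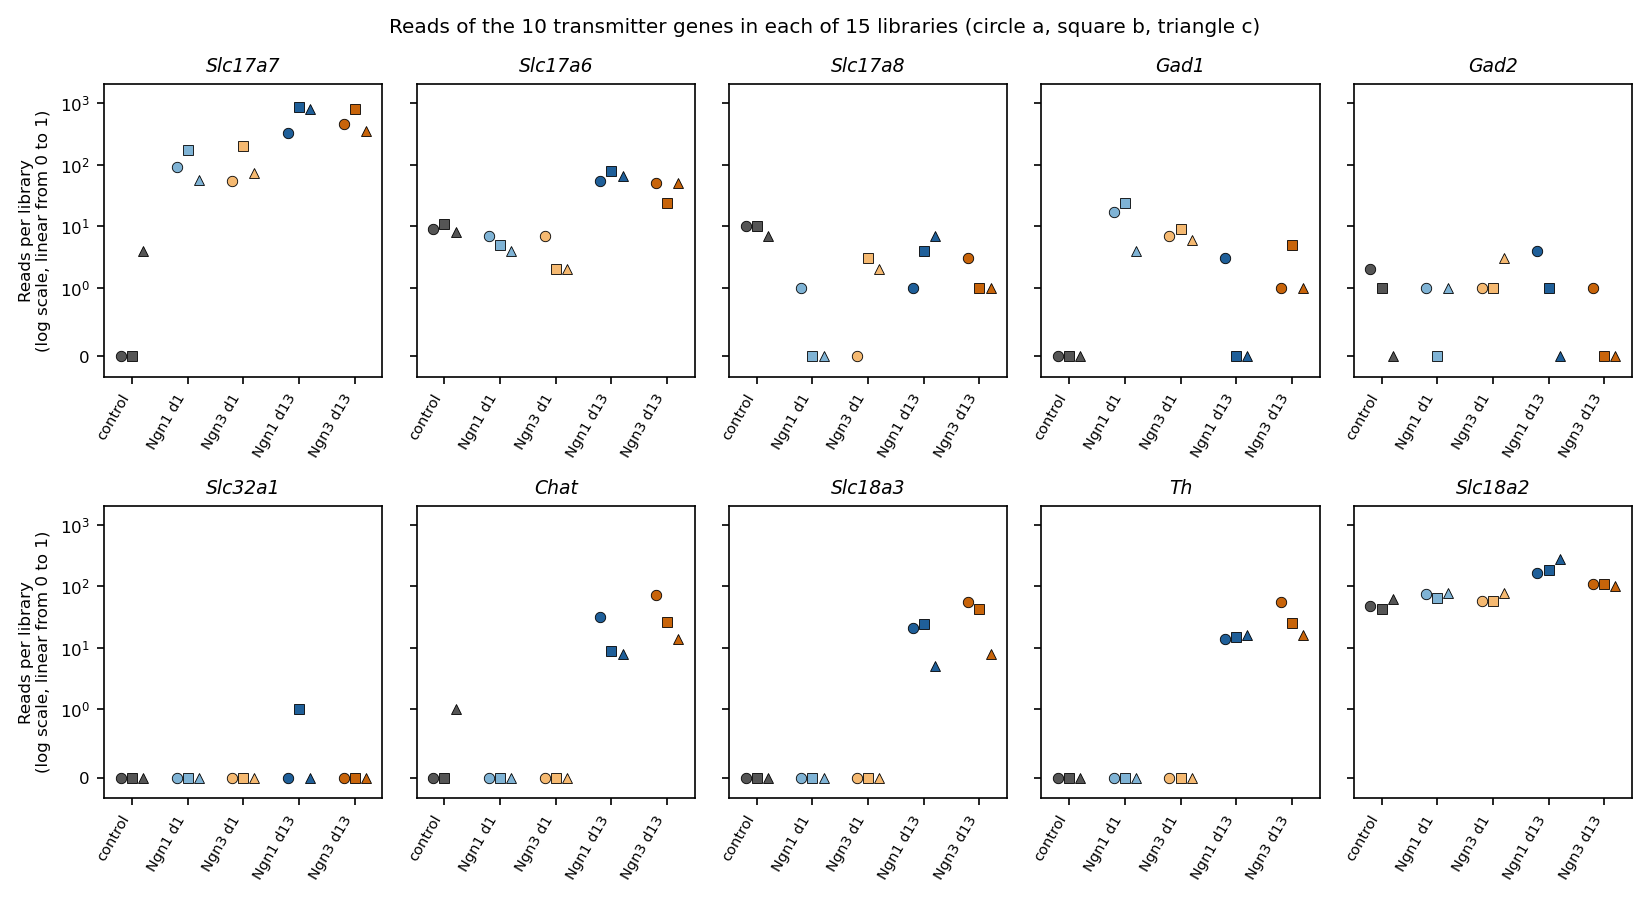
Raw reads of each of the 10 genes (vertical axis, log scale that is linear from 0 to 1) in the 15 libraries, grouped along the horizontal axis as control, Ngn1 and Ngn3 at day 1 (d1) and Ngn1 and Ngn3 at day 13 (d13), with 1 point per library. Slc17a7 has 54 to 198 reads at day 1 and 328 to 855 at day 13, Gad1 is highest at day 1, and Chat, Slc18a3 and Th have 5 or more reads in day 13 libraries only.

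Among the glutamate genes, Slc17a7 rose within the first day with either factor and Slc17a6 rose only in the comparisons of day 13. Slc17a7 encodes VGLUT1 and Slc17a6 encodes VGLUT2, the main vesicular glutamate transporters of cortical and of subcortical and sensory neurons respectively. Promoter windows of this pair are printed here, with that of Gad1, because their reads took different courses (RefSeq, GRCm38.p6, plus strand, 250 bases before to 50 after the start). Mean CPM was highest in Ngn1 at day 13 for Slc17a7 and Slc17a6 and in Ngn1 at day 1 for Gad1. It was lowest in control for Slc17a7 and Gad1 and in Ngn3 at day 1 for Slc17a6. Capitals mark each CANNTG, the E-box core that basic helix-loop-helix factors bind, which is its own reverse complement and so covers both strands.
Slc17a7 (chr7:45163671-45163970): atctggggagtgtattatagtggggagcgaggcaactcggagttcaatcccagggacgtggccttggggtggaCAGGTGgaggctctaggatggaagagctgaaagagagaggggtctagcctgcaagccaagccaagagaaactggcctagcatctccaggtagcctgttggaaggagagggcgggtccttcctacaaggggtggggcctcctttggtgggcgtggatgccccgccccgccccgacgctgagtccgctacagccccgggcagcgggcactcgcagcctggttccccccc
Slc17a6 (chr7:51621580-51621879): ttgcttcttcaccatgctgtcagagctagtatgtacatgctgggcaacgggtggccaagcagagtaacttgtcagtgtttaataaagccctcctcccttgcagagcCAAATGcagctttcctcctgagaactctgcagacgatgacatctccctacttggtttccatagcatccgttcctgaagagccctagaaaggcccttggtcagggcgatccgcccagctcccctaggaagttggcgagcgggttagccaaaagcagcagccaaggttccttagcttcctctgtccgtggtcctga
Gad1 (chr2:70561879-70562178): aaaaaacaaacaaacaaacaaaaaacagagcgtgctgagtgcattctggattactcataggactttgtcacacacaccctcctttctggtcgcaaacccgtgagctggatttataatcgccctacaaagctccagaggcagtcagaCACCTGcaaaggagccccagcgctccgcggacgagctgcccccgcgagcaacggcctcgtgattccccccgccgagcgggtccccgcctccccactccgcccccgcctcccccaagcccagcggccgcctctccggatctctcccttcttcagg
Each of these windows held 1 such hexamer, CAGGTG in Slc17a7, CAAATG in Slc17a6 and CACCTG in Gad1. Slc17a6 has another listed window (chr7:51624387-51624686), not printed, which held 2, CAGATG and CATATG. All 12 windows listed for the 10 genes held at least 1 CANNTG, as did 72.31% of the 32851 mouse promoter windows of the same length. CAGATG, searched with its reverse complement CATCTG, was in 3 of the 12 windows, that of Gad2 and 1 of the 2 each of Slc17a6 and Slc17a8, and in 17.15% of all windows. A match describes these letters only and is not a binding site.

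Slc17a7 (ENSMUSG00000070570, chr7:45163949-45176142, mm10, plus strand) had 0, 0 and 4 reads in the control libraries. It had 93, 170 and 56 reads in Ngn1 at day 1 and 54, 198 and 74 in Ngn3 at day 1. At day 13 it had 328, 855 and 808 reads with Ngn1 and 462, 807 and 354 with Ngn3. Every factor library exceeded every control library, and the day 13 libraries of each factor exceeded those of day 1. The mean level was 0.0805 ± 0.139 CPM (SD, n = 3) in control, 6.62 ± 3.17 and 6.64 ± 4.22 CPM at day 1 (Ngn1, Ngn3) and 34.4 ± 13.98 and 29.6 ± 12.2 CPM at day 13.

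Against control, the log2 fold change of Slc17a7 at day 1 was 6.18 ± 0.84 (SE; adjusted p = 0.000141, edgeR) with Ngn1 and 6.19 ± 0.84 (adjusted p = 0.000148) with Ngn3. At day 13 it was 8.56 ± 0.83 (adjusted p = 9.43e-07) and 8.34 ± 0.83 (adjusted p = 1.17e-06). All 4 control reads came from replicate c, and without that library the same log2 fold changes were fitted as 9.81 and 9.82 at day 1 and 12.17 and 11.96 at day 13, against a control group at 0. From day 1 to day 13 Slc17a7 rose by 2.38 ± 0.52 with Ngn1 and 2.15 ± 0.52 with Ngn3 on the log2 scale (adjusted p = 0.00127 and 0.00266). Without Ngn3 replicate b of day 1, the highest of its group, the Ngn3 values were 5.53 against control at day 1 and 2.78 from day 1 to day 13, both still called. The factors were not told apart, with a difference of 0.01 ± 0.51 at day 1 and -0.22 ± 0.49 at day 13 (Ngn3 minus Ngn1, log2, SE; adjusted p = 1 for both, edgeR).

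At day 1 the libraries ordered by Slc17a7 reads also stood in that order for the delivered factor in Ngn1, where replicate b was highest and replicate c lowest for both. In Ngn3 at day 1 replicate b was highest for both. The b libraries were also highest for the pan-neuronal markers at day 1, at 211 CPM with Ngn1 and 204 CPM with Ngn3, against 77.7 and 97.7 CPM, and 67.1 and 80.7 CPM, in the other libraries. At day 13 the orders matched only in part. With Ngn1 replicate a was lowest for both, but replicate c had the most factor reads (80443) and replicate b the most Slc17a7 reads (855). With Ngn3 replicate b was highest for both, but replicate a had the fewest factor reads (22349) and replicate c the fewest Slc17a7 reads (354). Pan-neuronal markers stood at 610, 1250 and 1390 CPM with Ngn1 and 698, 833 and 617 CPM with Ngn3. The part of the factor dose or of neuronal RNA in the Slc17a7 spread was not tested.

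Slc17a6 (ENSMUSG00000030500, chr7:51622006-51671119) had reads in control, numbering 9, 11 and 8. It had 7, 5 and 4 reads in Ngn1 at day 1 and 7, 2 and 2 in Ngn3 at day 1. In CPM the Ngn1 libraries lay below all control libraries, and Ngn3 replicate a, at 0.486 CPM, overlapped control replicate c, at 0.483 CPM. It had 54, 80 and 65 reads in Ngn1 at day 13 and 50, 24 and 51 in Ngn3 at day 13, all above the highest control library. Neither day 1 difference passed the test, at -0.79 ± 0.54 with Ngn1 (adjusted p = 0.431, edgeR) and -1.30 ± 0.57 with Ngn3 (adjusted p = 0.161). The second was called only without Ngn3 replicate a of day 1, at -2.23 with an adjusted p of 0.0358 from edgeR, where the alternatives ran from 0.0358 to 0.412.

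At day 13 Slc17a6 rose by 2.54 ± 0.48 with Ngn1 (adjusted p = 0.000375, edgeR) and by 1.95 ± 0.48 with Ngn3 (adjusted p = 0.00285) against control on the log2 scale. From day 1 to day 13 the rise was 3.33 ± 0.51 and 3.25 ± 0.54 on the same scale, and the second was 4.17 without Ngn3 replicate a of day 1. The Ngn1 libraries at day 13 lay above the Ngn3 libraries in CPM without overlap, yet the difference of -0.59 ± 0.43 (log2, Ngn3 minus Ngn1) was not called, with an adjusted p of 1 from edgeR.

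Slc17a8 encodes VGLUT3, which in the brain is found mostly in neurons that also release another transmitter. It had 10, 10 and 7 reads in control, 1, 0 and 0 in Ngn1 at day 1, 0, 3 and 2 in Ngn3 at day 1, 1, 4 and 7 in Ngn1 at day 13 and 3, 1 and 1 in Ngn3 at day 13. Control was the highest group. Summed reads, scaled for depth, were lower than control by a ratio of 27.0 (95% counting interval 4.44 to 1104) with Ngn1 and 5.42 (2.06 to 18.02) with Ngn3 at day 1, and by 2.71 (1.33 to 5.88) and 6.21 (2.36 to 20.7) at day 13. With no filter on low counts, the falls with Ngn1 at day 1 (-4.35 ± 1.24 on the log2 scale, adjusted p = 0.0148, edgeR) and with Ngn3 at day 13 (-2.57 ± 0.999, adjusted p = 0.0407) passed, where 3.98% and 15.5% of the 28947 genes then tested fell (8.2% and 33.3% called in either direction). The falls with Ngn3 at day 1 and Ngn1 at day 13 had adjusted p-values of 0.162 and 0.233 in that test.

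The make-up of these reads also differed between control and the factor libraries. Slc17a7 gave 0 of 19 and 0 of 21 reads of the 3 vesicular glutamate transporters in control a and b and 4 of 19 in control c, 21.1% with a 95% exact binomial interval of 6.05 to 45.6%. A count of 0 allows up to 17.6% and 16.1% in replicates a and b by the same interval. The share of Slc17a7 was 94.2 ± 2.64% (SD, n = 3) in Ngn1 and 93.6 ± 4.63% in Ngn3 at day 1, and 89.5 ± 3.37% and 91.3 ± 5.09% at day 13. These intervals cover counting error only.

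Of the GABA genes, Gad1 had its highest reads at day 1 and at most 5 reads in any library of day 13. Gad1 and Gad2 encode the glutamate decarboxylases GAD67 and GAD65, which make GABA, and Slc32a1 encodes VGAT, the transporter that packs GABA and glycine into vesicles. Gad1 (ENSMUSG00000070880, chr2:70553072-70602014) had 0 reads in all control libraries. It had 17, 24 and 4 reads in Ngn1 at day 1 and 7, 9 and 6 in Ngn3 at day 1. It had 3, 0 and 0 reads in Ngn1 at day 13 and 1, 5 and 1 in Ngn3 at day 13. No day 1 library overlapped control, and the day 13 libraries of each factor lay below those of its day 1.

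Gad1 was at least 15.03-fold higher than control in Ngn1 at day 1 and at least 7.31-fold higher in Ngn3 at day 1, taking 3 counts over the control group as the floor. At day 13 the summed level was lower than at day 1 by a ratio of 18.1 (95% counting interval 5.82 to 91.1) with Ngn1 and 3.603 (1.49 to 9.99) with Ngn3. With no filter on low counts the rises at day 1 passed with adjusted p-values of 0.000412 and 0.00516 (edgeR, where 4.22% and 4.6% of genes rose and, with Ngn3, 8.65% were called in either direction), and so did the fall with Ngn1 from day 1 to day 13 (adjusted p = 0.00135, where 15.5% of genes fell). The fall with Ngn3 had an adjusted p of 0.144 in that test. In 13 of the 15 fits that left out 1 library Gad1 passed the filter, through its reads in replicates a and b of Ngn1 at day 1, the group where it was highest, so its calls there are no independent support. With the fit with no filter these make 14 alternatives, in which the adjusted p (edgeR) ran from 0.000412 to 0.0245 for the Ngn1 rise and from 0.00516 to 0.0648 for the Ngn3 rise. Its highest group mean, in Ngn1 at day 1, was 0.932 ± 0.595 CPM.

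The other GABA genes stayed at the limit of detection. Gad2 had 2, 1 and 0 reads in control, 1, 0 and 1 in Ngn1 at day 1, 1, 1 and 3 in Ngn3 at day 1, 4, 1 and 0 in Ngn1 at day 13 and 1, 0 and 0 in Ngn3 at day 13, and all groups overlapped. Slc32a1 had 1 read in all 15 libraries, in Ngn1 replicate b of day 13. The antisense gene Gm14205 covers 24.92% of the exon bases of Slc32a1, and the strand setting of the counting is unknown, so even that read may not be its own. No difference in Gad2 or Slc32a1 was detectable at this depth.

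**Figure D2:**
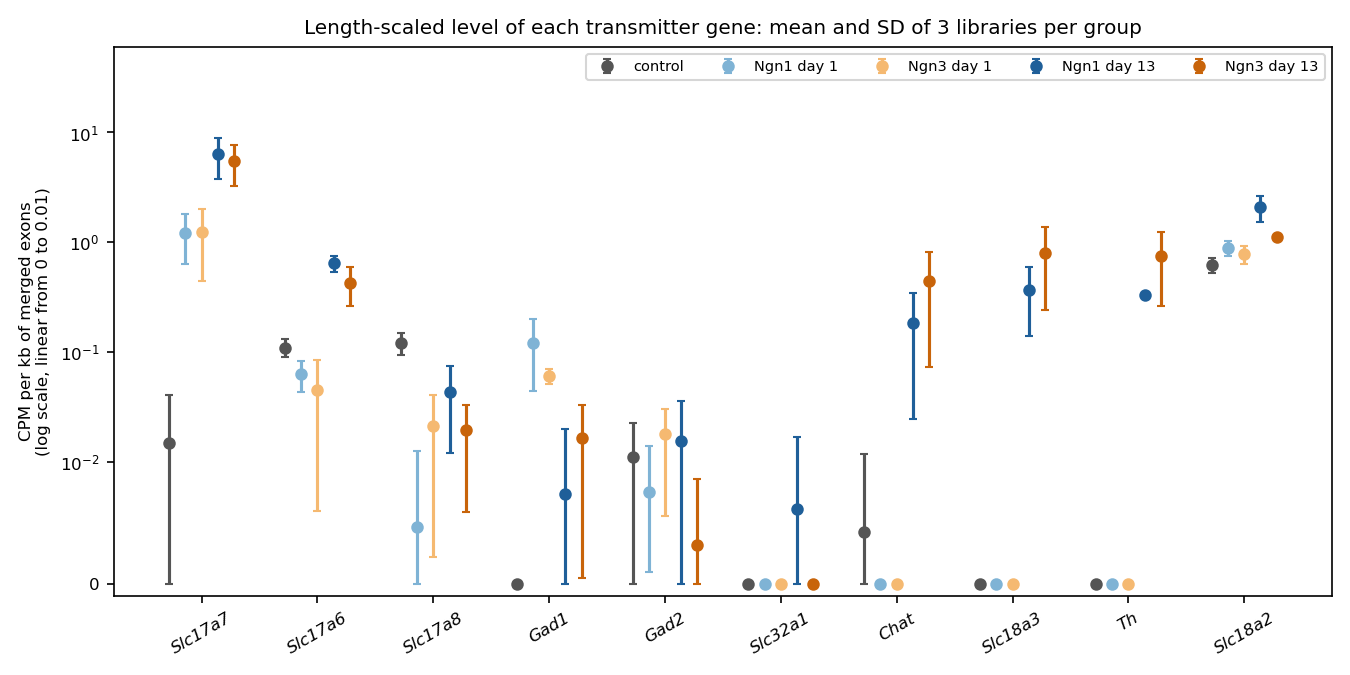
Mean level of each of the 10 genes in CPM per kb of merged exons (vertical axis, log scale that is linear from 0 to 0.01) in the 5 groups, with bars of 1 SD over 3 libraries cut off at 0. At day 13 Slc17a7 stands highest at 6.39 (Ngn1) and 5.50 (Ngn3) CPM per kb, and Slc32a1 does not rise above 0.00614 in any group.

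The genes of acetylcholine synthesis and packaging appeared at day 13 with both factors. Chat encodes choline acetyltransferase and Slc18a3 encodes VAChT, whose gene lies within the Chat locus on the same strand and shares no annotated exon base with it. The window at the start of Slc18a3 (chr14:32464801-32465100, minus strand, RefSeq, GRCm38.p6) is printed because this gene went from no read to up to 56 reads, with its only E-box core (CAAGTG) in capitals.
Slc18a3: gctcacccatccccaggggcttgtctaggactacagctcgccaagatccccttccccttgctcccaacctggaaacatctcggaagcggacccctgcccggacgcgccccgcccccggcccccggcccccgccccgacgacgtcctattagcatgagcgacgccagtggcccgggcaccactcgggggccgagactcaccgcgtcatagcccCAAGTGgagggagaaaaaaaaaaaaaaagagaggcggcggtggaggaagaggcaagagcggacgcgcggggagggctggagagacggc
Chat (ENSMUSG00000021919, chr14:32408203-32465989) had 0, 0 and 1 reads in control and none in any day 1 library. It had 31, 9 and 8 reads in Ngn1 and 73, 26 and 14 in Ngn3 at day 13. Slc18a3 (ENSMUSG00000100241, chr14:32462438-32464850) had no reads in the 9 control and day 1 libraries. It had 21, 24 and 5 reads in Ngn1 and 56, 42 and 8 in Ngn3 at day 13. For both genes all day 13 libraries exceeded all earlier ones, and the Ngn1 and Ngn3 libraries overlapped.

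Chat was higher than control at day 13 by a ratio of 39.8 (95% counting interval 6.81 to 1605) with Ngn1 and 98.2 (17.3 to 3913) with Ngn3 (adjusted p = 0.00492 and 0.000885, edgeR). The ratios rest on 1 control read, in replicate c, and replicate a held 31 of the 48 Ngn1 reads and 73 of the 113 Ngn3 reads. The fitted log2 fold changes of Chat, 4.93 and 6.20, became 6.87 and 8.14 without control replicate c, against a control group at 0, and 3.94 and 5.26 without replicate a of the day 13 group concerned, and stayed called. Slc18a3 was at least 13.8-fold higher with Ngn1 and at least 30.7-fold higher with Ngn3 (adjusted p = 0.00430 and 0.00132, edgeR). The means of both genes were higher with Ngn3, at 2.08 ± 1.74 against 0.869 ± 0.754 CPM for Chat and 1.94 ± 1.36 against 0.889 ± 0.552 CPM for Slc18a3. Neither difference between factors passed, at 1.26 ± 0.74 for Chat and 1.12 ± 0.77 for Slc18a3 (log2, SE; adjusted p = 1 for both, edgeR), nor with the replicate letter as a block within day (adjusted p = 0.154 and 0.236).

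Within each factor at day 13 replicate a held the most Chat reads. That library had the fewest delivered factor reads of its group, 22766 with Ngn1 and 22349 with Ngn3, and the highest summed level of the 6 macrophage markers, 85.3 CPM against 26.8 and 44.4 with Ngn1 and 195 CPM against 15.9 and 21.9 with Ngn3, none of which was at 0 in any group. Control libraries had 131 to 209 CPM of these markers and 0, 0 and 1 reads of Chat. The part of these differences in the Chat spread was not tested.

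The other genes of acetylcholine handling did not all move the same way. Of 7 listed, 6 were tested at day 13, where 4 rose and 1 fell with each factor. Their median log2 fold change was 1.66 (Ngn1) and 1.78 (Ngn3) beside 0.10 for all genes, of which 32.6% and 31.2% rose and 26.8% and 26.4% fell. Slc5a7, the high-affinity choline transporter that supplies Chat with choline at cholinergic terminals, was highest in control, with 130, 74 and 110 reads. It had 15, 14 and 37 reads in Ngn1 at day 1, 11, 7 and 40 in Ngn3 at day 1, 8, 32 and 30 in Ngn1 at day 13 and 4, 2 and 5 in Ngn3 at day 13, none overlapping control. It fell against control with each factor at each day, by -2.22 ± 0.63 and -2.43 ± 0.63 at day 1 and -2.45 ± 0.63 and -4.99 ± 0.76 at day 13 (log2, Ngn1 and Ngn3; adjusted p = 0.0282, 0.0181, 0.00349 and 5.45e-05, edgeR). Of the enzymes that break acetylcholine down, Ache rose at day 13 by 3.20 ± 0.59 and 2.27 ± 0.59 and Bche by 3.66 ± 0.44 and 4.05 ± 0.45 on the log2 scale, and Colq, the collagen tail that anchors acetylcholinesterase, rose by 2.38 ± 0.85 and 2.34 ± 0.85.

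**Figure D3:**
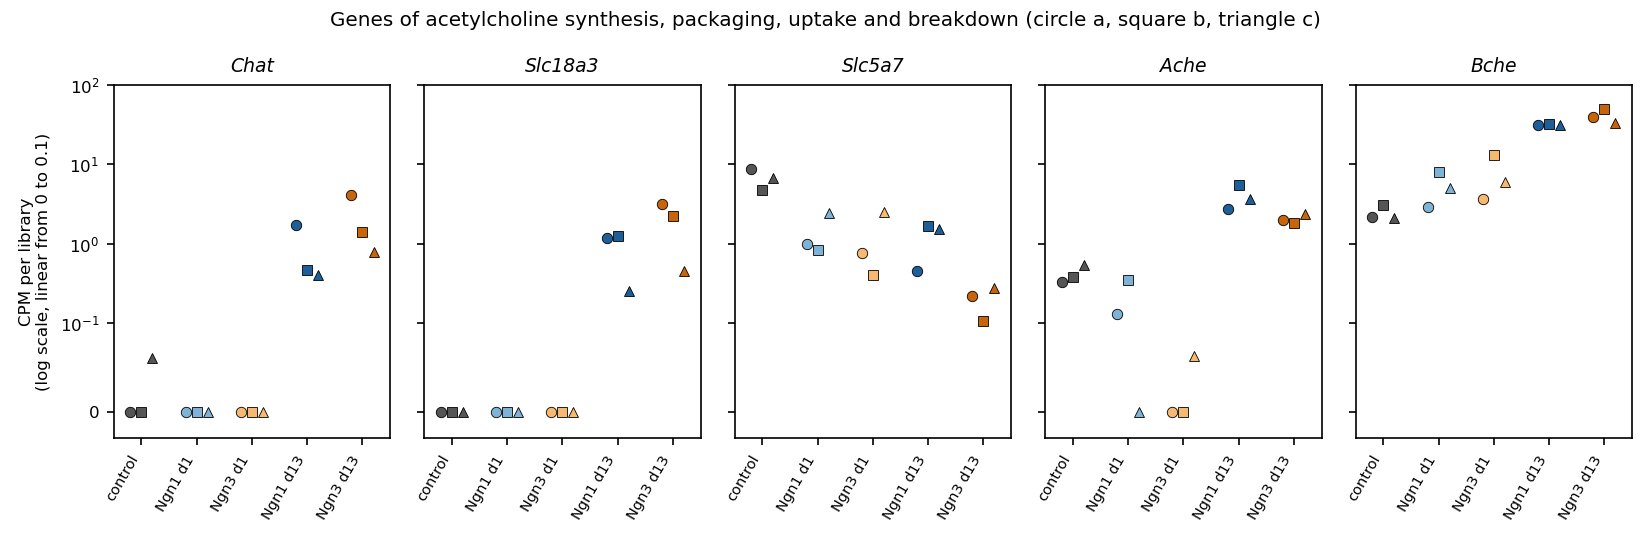
Level in CPM (vertical axis, log scale that is linear from 0 to 0.1) of Chat, Slc18a3, Slc5a7, Ache and Bche in the 15 libraries, grouped along the horizontal axis as control, day 1 (d1) and day 13 (d13), with 1 point per library. Chat and Slc18a3 appear at day 13, while the choline transporter gene Slc5a7 is highest in control and lowest in Ngn3 at day 13.

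Of the monoamine genes, Th appeared at day 13 and Slc18a2 was present throughout. Th encodes tyrosine hydroxylase, the rate-limiting enzyme of catecholamine synthesis, and Slc18a2 encodes VMAT2, the vesicular monoamine transporter of neurons. Th (ENSMUSG00000000214, chr7:142892752-142931128) had no reads in the 9 control and day 1 libraries, 14, 15 and 16 in Ngn1 at day 13 and 55, 25 and 16 in Ngn3 at day 13. It was at least 12.4-fold higher than control with Ngn1 and at least 27.8-fold higher with Ngn3 (adjusted p = 0.000849 and 0.000219, edgeR). In CPM the Ngn3 libraries lay above the Ngn1 libraries, but the difference of 1.15 ± 0.57 (log2) did not pass, with an adjusted p of 0.972 from edgeR. Replicate a held 55 of the 96 Th reads of Ngn3 at day 13.

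Slc18a2 (ENSMUSG00000025094, chr19:59260896-59296012) had 48, 43 and 63 reads in control. It had 74, 65 and 78 reads in Ngn1 and 57, 58 and 78 in Ngn3 at day 1, and 161, 182 and 281 in Ngn1 and 107, 108 and 101 in Ngn3 at day 13. The day 13 libraries exceeded all control libraries with each factor, and the Ngn1 libraries exceeded the Ngn3 libraries. The mean levels were 3.24 ± 0.527 CPM in control, 4.63 ± 0.715 and 4.09 ± 0.794 CPM at day 1 and 10.9 ± 2.90 and 5.81 ± 0.136 CPM at day 13. The day 1 differences from control, 0.51 ± 0.28 and 0.33 ± 0.28 on the log2 scale, did not pass.

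At day 13 Slc18a2 rose by 1.74 ± 0.28 with Ngn1 (adjusted p = 8.17e-05, edgeR) and by 0.84 ± 0.27 with Ngn3 (adjusted p = 0.0163). The Ngn3 rise was lost with no filter on low counts (adjusted p = 0.0717, edgeR) and without control replicate b (0.0689), its alternatives running from 0.00346 to 0.0717. From day 1 to day 13 Slc18a2 rose by 1.23 ± 0.27 with Ngn1 (adjusted p = 0.00125, edgeR), while 0.51 ± 0.27 with Ngn3 did not pass (adjusted p = 0.1252) unless libraries were scaled by their totals alone (0.75, adjusted p = 0.0366; alternatives 0.0366 to 0.337).

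Between the factors at day 13 Slc18a2 was lower with Ngn3 by a log2 difference of -0.90 ± 0.27, which did not pass over all genes, with an adjusted p of 0.456 from edgeR. Same-lettered Ngn1 and Ngn3 libraries of a day deviated together, and with the letter as a block within day, a fit without the control libraries, the difference was -0.85 ± 0.21 with an adjusted p of 0.0386 (edgeR; alternatives 0.0386 to 1). In that fit 4.2% of 16656 genes were called between the factors at day 13, against 0.0237% without the block, and of the 10 genes 1 was called against 0. Without the block the genes called at day 13 split into 0.00593% higher and 0.0178% lower with Ngn3. At day 1 no member was called, where 0.0119% of genes were (0.00593% in each direction). In edgeR without the block, Slc18a2 at day 13 was the only tested member under an unadjusted p of 0.05 between factors. With the block within day, Chat and Slc18a3 were also under it at day 13 (unadjusted p = 0.0144 and 0.0325). DESeq2 called 0 members at either day. Of 16872 genes it called 2 higher and 2 lower with Ngn3 at day 1, and 31 higher and 57 lower at day 13. With no filter on low counts 0 members were called at day 1, where 0.0138% of genes were (0.00691% in each direction), and 0 at day 13, where 0.321% were (0.111% higher and 0.211% lower). The change from day 1 to day 13 was not shown to differ between the factors for Slc17a7, Slc17a6 or Slc18a2, with no gene called in all 16872 (0%). Chat, Slc18a3 and Th had no reads at day 1 with either factor, so this test could not decide for them. Their SE in it was 2278, 3645 and 2943 on the log2 scale. For the same reason the comparison of factors at day 1 could not decide for these genes.

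**Figure D4:**
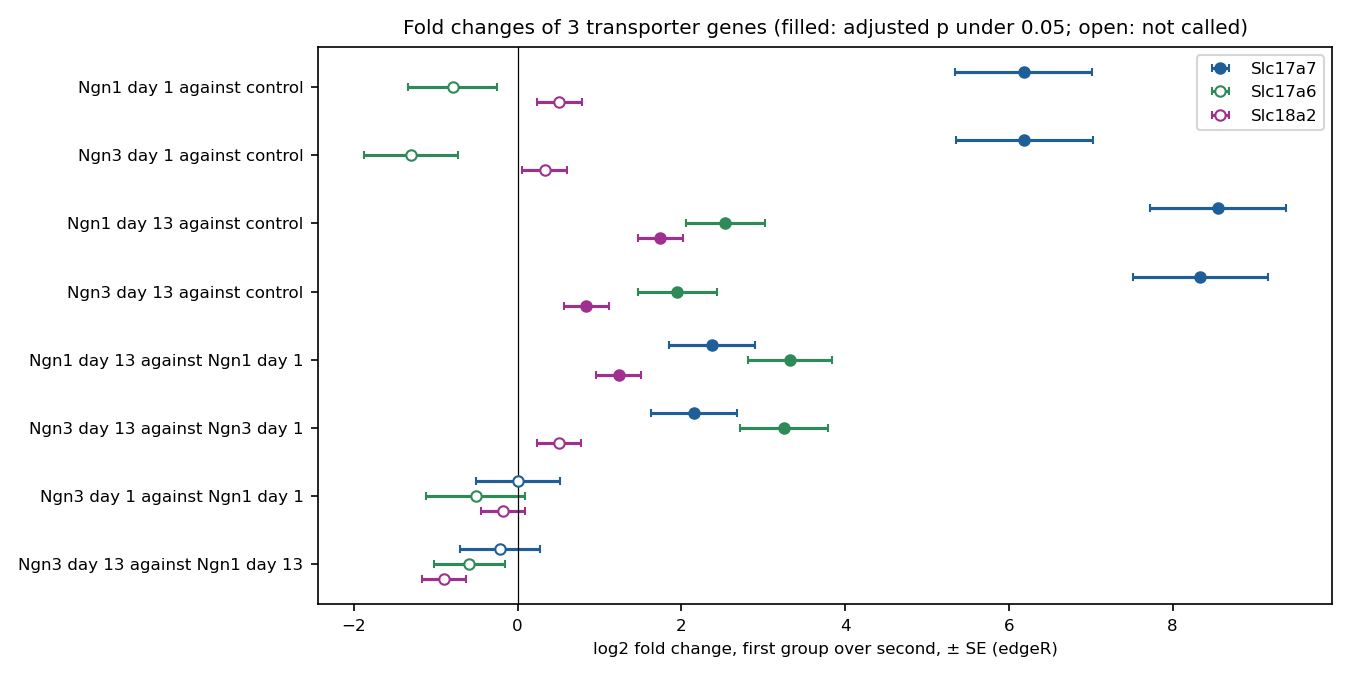
Log2 fold change (horizontal axis, first group over second, with bars of 1 SE) of Slc17a7, Slc17a6 and Slc18a2 in 8 comparisons along the vertical axis, with filled points called and open points not called. Slc17a7 is called at day 1 and day 13, Slc17a6 and Slc18a2 against control only at day 13, and no point is called between the factors in this fit without a block.

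Of 20 other listed monoamine genes, 14 were tested at day 13, and 1 rose and 8 fell with Ngn1 and 2 rose and 8 fell with Ngn3, with a median log2 fold change of -1.44 and -1.32 beside 0.10 for all genes, of which 26.8% and 26.4% fell. With library totals alone 3 rose and 7 fell with Ngn1 and 3 rose and 8 fell with Ngn3. Ddc, the decarboxylase that turns the product of Th into dopamine, fell from 95, 157 and 157 reads in control to 36, 36 and 23 with Ngn1 and 32, 25 and 40 with Ngn3 at day 13, or by -2.36 ± 0.36 and -2.26 ± 0.36 on the log2 scale. Maoa, which degrades monoamines, fell by -2.95 ± 0.23 and -2.77 ± 0.23. Gchfr, the feedback regulator of the enzyme that starts synthesis of the Th cofactor, fell by -5.01 ± 0.86 and -4.65 ± 0.83, and Pcbd1, which helps to regenerate that cofactor, by -1.89 ± 0.56 and -3.89 ± 0.67. Pts, in the same cofactor pathway, rose by 0.96 ± 0.32 and 0.85 ± 0.32. Slc18a1, the other vesicular monoamine transporter gene, had 1, 1 and 0 reads in control and 5, 11 and 23 in Ngn3 at day 13 (adjusted p = 0.00301, edgeR), and 2, 2 and 11 in Ngn1 at day 13 (adjusted p = 0.0581, or 0.0378 with library totals alone). The difference between the factors, 1.44 ± 0.72 (log2, Ngn3 minus Ngn1), was not called (adjusted p = 0.943, edgeR).

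Some untested genes of this list, picked after their values were seen, stayed near 0. Dbh, which makes noradrenaline, had at most 3 reads in any library, and Slc6a3, the plasma membrane dopamine transporter gene, at most 2. Slc6a2, the noradrenaline transporter gene, had at most 5.

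Ordered by length-scaled level, in CPM per kb of merged exons, the 6 tested genes in Ngn1 at day 13 were Slc17a7 at 6.39 ± 2.59, Slc18a2 at 2.08 ± 0.554, Slc17a6 at 0.644 ± 0.106, Slc18a3 at 0.368 ± 0.229, Th at 0.334 ± 0.00778 and Chat at 0.185 ± 0.160 (SD, n = 3). In Ngn3 at day 13 Slc17a7 was at 5.50 ± 2.27, Slc18a2 at 1.11 ± 0.0261, Slc18a3 at 0.804 ± 0.563, Th at 0.747 ± 0.482, Chat at 0.442 ± 0.370 and Slc17a6 at 0.428 ± 0.164. With Ngn1 the ranges of 1 SD overlapped among Slc18a3, Th and Chat, and that of Slc17a6 overlapped that of Slc18a3. With Ngn3 the range of Slc18a3 overlapped those of all the others but Slc17a7, so these neighbours were not ordered. In control Slc18a2 led at 0.621 ± 0.101 CPM per kb, followed by Slc17a8 at 0.122 ± 0.0281 and Slc17a6 at 0.110 ± 0.0206, whose ranges overlapped.

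Around the glutamate transporters, 12 of 14 listed genes of glutamate supply and uptake were tested. At day 13, 3 rose and 6 fell with each factor, with medians of -0.72 and -0.75. Among all genes 32.6% rose and 26.8% fell with Ngn1, and 31.2% rose and 26.4% fell with Ngn3. Slc1a2, a plasma membrane glutamate transporter abundant in astrocytes, rose at day 1 (3.11 ± 0.53 and 2.61 ± 0.53) and at day 13 (5.81 ± 0.54 and 5.36 ± 0.54 on the log2 scale). The 6 astrocyte markers, of which Slc1a2 is 1, summed to 3.11 to 8.52 CPM in control. At day 13 they summed to 15.9 to 44.9 CPM in Ngn1 and 17.95 to 29.1 CPM in Ngn3, with Gjb6 at 0 in Ngn3. These sums thus contain the rise of Slc1a2 itself. Of the 4 markers tested at day 13, 2 rose, Slc1a2 among them, and 1 fell with each factor, beside the shares of all genes just given. The part of astrocyte RNA in the Slc1a2 result was not tested. Slc1a3, a related transporter, fell at day 1 (-2.65 ± 0.30 and -2.73 ± 0.30) and rose at day 13 (0.88 ± 0.27 and 0.84 ± 0.27), and Slc1a4 rose by 2.00 ± 0.26 and 1.65 ± 0.25. Slc38a1 and Slc38a2, which import glutamine, fell by -1.18 ± 0.30 and -2.14 ± 0.31 and by -1.49 ± 0.32 and -1.50 ± 0.32. Slc1a6 fell by -1.30 ± 0.44 and -1.23 ± 0.44, calls lost when libraries were scaled by totals alone (adjusted p = 0.0614 and 0.0885, edgeR).

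Around the GABA genes, 6 of 8 listed genes of GABA and glycine handling were tested, and 4 rose and none fell at day 13 with each factor, with medians of 2.79 and 3.05, where 32.6% and 31.2% of all genes rose. Abat, which degrades GABA, rose by 4.18 ± 0.58 and 4.83 ± 0.60 on the log2 scale. Slc6a11, the GABA transporter GAT3, had no reads in control and day 1 libraries, 14, 75 and 21 in Ngn1 at day 13 and 28, 40 and 9 in Ngn3 at day 13, at least 30.4-fold and 22.3-fold above control.

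Of the other vesicular carriers 4 of 6 were tested and 3 rose with each factor at day 13, where 32.6% and 31.2% of all genes rose. All 3 were SV2 genes, whose glycoproteins sit in the vesicle membrane. Sv2b had 6, 7 and 0 reads in control and rose by 4.47 ± 0.69 and 5.66 ± 0.69 at day 1 and 6.55 ± 0.69 and 7.26 ± 0.70 at day 13 (log2). Sv2a rose at day 13 by 3.16 ± 0.47 and 2.48 ± 0.46 and Sv2c by 2.63 ± 0.52 and 3.36 ± 0.53. All 18 listed subunits and accessory proteins of the proton pump, which drives every vesicular transporter but also acidifies lysosomes in all cells, were tested. At day 13, 3 rose and 7 fell with Ngn1 and 2 rose and 7 fell with Ngn3, with medians of -0.41 and -0.33. Among all genes 32.6% rose and 26.8% fell with Ngn1, and 31.2% rose and 26.4% fell with Ngn3. With library totals alone 3 rose and 5 fell with Ngn1 and 3 rose and 4 fell with Ngn3, with medians of -0.10 and -0.02. Atp6v1g2, a subunit enriched in brain, rose by 2.48 ± 0.32 and 2.11 ± 0.32 and Atp6v0a1 by 1.95 ± 0.25 and 1.43 ± 0.24, while Atp6v1c1 fell by -1.25 ± 0.18 with each and Atp6v1a by -1.07 ± 0.26 and -1.19 ± 0.26.

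Over all 6 pathway lists 60 of 73 genes were tested. At day 1, 2 rose and 6 fell with Ngn1 and 3 rose and 6 fell with Ngn3. Among all genes 6.78% rose and 5.42% fell with Ngn1 at that day, and 7.19% rose and 5.59% fell with Ngn3. At day 13, 18 rose and 22 fell with each factor, where 32.6% and 31.2% of all genes rose and 26.8% and 26.4% fell. The rises of the lists thus stood near the share of all genes. The split depended on the scaling, since library totals alone moved the all-gene median from 0.10 to 0.40 with each factor and gave 21 rises and 17 falls with Ngn1 and 20 and 18 with Ngn3. Over all genes the same change moved the Ngn1 split at day 13 from 5495 rises and 4521 falls to 6762 and 3285, and the Ngn3 split from 5260 and 4459 to 6663 and 3211.

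**Figure D5:**
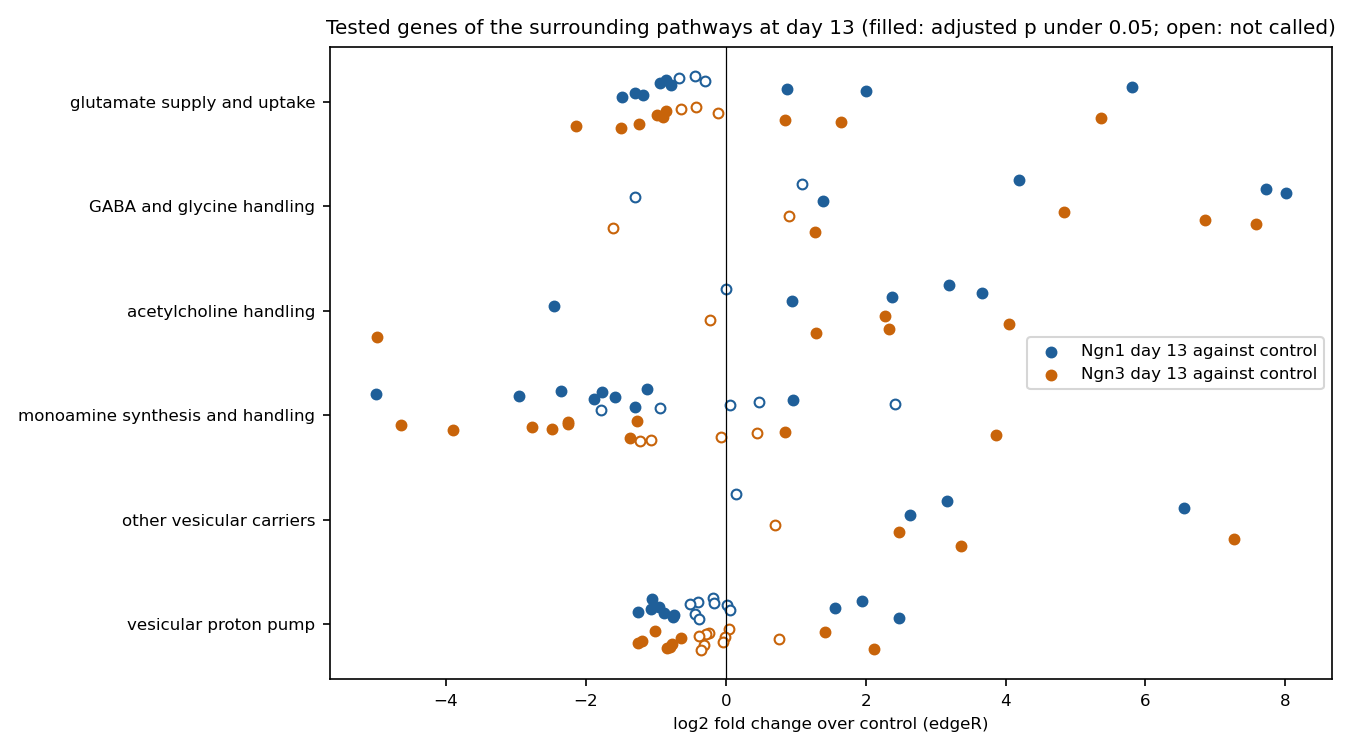
Log2 fold change over control at day 13 (horizontal axis) of the tested genes of 6 pathway lists (vertical axis), for Ngn1 and Ngn3, with 1 point per gene, filled if called and open if not. Points of genes at 0 in control are fitted values and not bounds. The monoamine list has most of its points below 0, and the GABA and glycine list has 4 called genes above 0 and none below with each factor.

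Of 12 listed regulators of glutamatergic fate 8 were tested, and 6 rose and none fell at day 13 with each factor. Among all genes 32.6% rose and 26.8% fell with Ngn1, and 31.2% rose and 26.4% fell with Ngn3. Neurod1 and Neurod2, neuronal helix-loop-helix factors downstream of neurogenins, rose at both days. Neurod1 had 0 reads in control, 9, 33 and 25 in Ngn1 at day 1, 9, 46 and 29 in Ngn3 at day 1, 543, 796 and 1850 in Ngn1 at day 13 and 408, 320 and 390 in Ngn3 at day 13. Neurod2 had 0 in control, 87, 246 and 386 reads in Ngn1 at day 13 and 372, 507 and 388 in Ngn3 at day 13. Neurod6 had none until day 13, then 97, 126 and 235 reads and 48, 43 and 65 reads, and Pou4f1, a factor of sensory neurons, went from 0, 1 and 0 in control to 89, 314 and 413 and to 169, 214 and 218.

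Of 15 listed regulators of GABAergic fate 7 were tested at day 13. With Ngn1 1 rose and 3 fell, and with Ngn3 1 rose and 2 fell. Among all genes 32.6% rose and 26.8% fell with Ngn1, and 31.2% rose and 26.4% fell with Ngn3. Ptf1a, which directs GABAergic fate in the dorsal spinal cord and cerebellum, had 0 reads in all 15 libraries. Dlx2, a factor of forebrain GABAergic neurons, fell by -4.04 ± 0.79 and -4.35 ± 0.81 and Gata3 by -3.26 ± 0.67 and -3.82 ± 0.70 on the log2 scale. Tal2 rose, from 0, 2 and 0 reads in control to 66, 17 and 17 and to 11, 10 and 10 (adjusted p = 0.00214 and 0.0314, edgeR).

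Of 8 regulators of cholinergic fate 5 were tested at day 13. With Ngn1 1 rose and none fell, and with Ngn3 1 rose and 1 fell. Among all genes 32.6% rose and 26.8% fell with Ngn1, and 31.2% rose and 26.4% fell with Ngn3. Lhx4, a factor of motor neuron precursors, rose from 1, 0 and 2 reads to 65, 75 and 61 with Ngn1 and to 37, 45 and 31 with Ngn3. Isl1 fell with Ngn3 by -1.36 ± 0.41, a call lost with library totals alone (adjusted p = 0.0526, edgeR). Of 11 regulators of monoaminergic fate 5 were tested and 3 rose with Ngn1 and 2 with Ngn3, where 32.6% and 31.2% of all genes rose. Among them was Insm1, a zinc finger factor of neural and endocrine precursors. It rose from 3, 0 and 0 reads to 934, 1265 and 1330 and to 1088, 1354 and 1105. En2 rose from 0 reads to 6, 17 and 55 and to 18, 42 and 30.

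Insm1 is also an endocrine factor, and the 9 markers of pancreatic and enteric endocrine cells summed to 0.331 to 0.897 CPM in control, 118 to 149 CPM in Ngn1 and 77.7 to 197 CPM in Ngn3 at day 13, with Ins1 and Ins2 at 0 in the former and Ins1 in the latter. VMAT2 and chromogranins are shared by neurons and endocrine cells, and the part of such cells in the Slc18a2 result was not tested.

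Across the 15 libraries, log2 CPM of Slc17a7 was close to that of Sema3g (Pearson r = 0.988), Zhx3 (0.985), Lzts1 (0.984) and Hpca (0.980), among 14409 genes. Slc17a6 was most like Gria2 (0.952) and Scg2 (0.947), and its r with Slc17a7 was 0.465. Chat, Slc18a3 and Th, each near 0 in 9 libraries, had r of 0.964 (Chat and Slc18a3), 0.971 (Chat and Th) and 0.961 (Slc18a3 and Th). Th was most like Grin2c (0.993) and Chga (0.986), Chat like Slc38a5 (0.975), Slc18a3 like Egfem1 (0.988) and Slc18a2 like Wwc1 (0.944). These values describe libraries that share their groups, and r follows the group means closely.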

How the data were processed

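PolyA RNA of 15 libraries in 5 groups of 3 was compared. The authors deposited 1 table of raw, whole-number counts by gene, made with CASAVA, HISAT2 and featureCounts on mm10, per the submitters' processing notes. Versions, annotation release and strand setting are not given there. Symbols and coordinates came from GENCODE M21 (mm10), which named 42548 of 43432 IDs, and promoter windows from RefSeq (GRCm38.p6), matched by symbol for all 10 genes. All 15 libraries entered 1 fit with 1 mean per group in edgeR 4.0.16 (limma 3.58.1, R 4.3.3), with TMM factors, edgeR's expression filter (minimum count 10, minimum total 15), which kept 16872 genes, and the quasi-likelihood test with Benjamini-Hochberg adjustment over all of them. The script was tested on simulated data. CPM use TMM-scaled totals, and CPM per kb divides by merged exon length. A fold against a group at 0 is a bound against 3 counts over the group, and counting intervals are at 95%.

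Alternatives were DESeq2 size factors, library totals alone, no filter, DESeq2 1.42.0, only the groups compared, the replicate letter as a block (over all libraries, or within day) and leaving out each library. List counts under other scalings were chosen after seeing the data. Same-lettered Ngn1 and Ngn3 libraries deviated together within day 1 (r of 0.325 to 0.539 across genes) and within day 13 (0.521 to 0.58), each over 0.1, so the letters were taken to pair the factors within a day. Between control and day 1 the r of letters a, b and c was 0.364, 0.297 and 0.051 with Ngn1. With Ngn3 it was 0.259, 0.321 and 0.056. Different letters there reached at most 0.049 and 0.068. Letters a and b thus deviated together between control and day 1. Letter c was under 0.1, so the letters were not taken to pair these groups. Between control and day 13 all were negative, so there they pair nothing.

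The genes and lists were chosen with earlier results of these data known. All 10 genes are named; from each pathway and regulator list, called genes with the highest and lowest log2 fold changes at day 13 (up to 3 each way) and genes at 0 throughout could be named; for likeness, the 5 genes of highest r (prior count 2), for genes of at least 1 CPM in some group. Some genes that this rule names are not reported here.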

Additional observations from a re-analysis of the deposited data

Results flagged for a closer look

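Slc18a2 differed between the factors at day 13 when replicate letters were used as a block within day, with a log2 difference of -0.853 (Ngn3 minus Ngn1, adjusted p = 0.0386, edgeR). Reads numbered 161, 182 and 281 with Ngn1 and 107, 108 and 101 with Ngn3, lower with Ngn3 in 3 of 3 pairs. Without the block the adjusted p was 0.456. The change of this difference from day 1 to day 13 was -0.67 ± 0.30 in the blocked fit, with an adjusted p of 0.446 from edgeR. Groups of 3 libraries are too small for the search for single libraries far from the rest.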

How the results depend on the processing

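Of 54 results for single genes under up to 22 alternatives, none reversed, 2 lost and 3 gained a call, all given above (Slc18a2 and Slc17a6). Calls of members at day 13 against control, and from day 1 to day 13, stayed within 1.5 times of 6, 6, 6 and 5 under every alternative run. In these comparisons Chat with Ngn1 and Slc18a3 with either factor were tested in 20 of the 21 alternatives and called in all 20. With only the groups compared they missed the filter on low counts, so that fit gave no support for their calls. In the main fit they passed it through the day 13 libraries of both factors together. With no filter on low counts 3 members were called with Ngn1 at day 1 and 2 with Ngn3, against 1 each, since Gad1 and Slc17a8 then entered the test. With the replicate letter as a block within day 1 member, Slc18a2, was called between the factors at day 13, against 0. Leaving out each library gave 1 to 2 called members with Ngn1 and 1 to 3 with Ngn3 at day 1, the added genes being Gad1 and, once, Slc17a6. Calls over all genes were not counted in these fits. The replicate block over all libraries gave 1, 1, 6, 6, 6 and 5 called members, as without it, and changed no other call of a member. Over all 16872 genes it called more than the fit without it. Against control at day 1, 1485 rose and 1275 fell with Ngn1, and 1562 and 1324 with Ngn3. At day 13, 5704 rose and 4818 fell with Ngn1, and 5509 and 4769 with Ngn3. From day 1 to day 13, 5434 rose and 4890 fell with Ngn1, and 5170 and 4826 with Ngn3. Within day the block raised the genes called between the factors from 4 to 699 at day 13 and from 2 to 25 at day 1. No block within day could be fitted for comparisons across days or with control. Depth limits Gad2 and Slc32a1 in every library, and Slc17a8, Gad1, Slc17a6, Chat and Slc18a3 in groups with libraries under 10 reads.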
